A study of Mus musculus with 6 samples.

Results

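The genes described here are 9 genes of the major histocompatibility complex (MHC) class I pathway: the heavy chains H2-K1, H2-D1, H2-T23 and H2-M3, the shared light chain B2m, the peptide transporter subunits Tap1 and Tap2, the loading chaperone Tapbp and the transcriptional activator Nlrc5. They were followed in hippocampal RNA from 6 mice aged 2 to 3 months on Affymetrix mouse expression arrays, 1 array per animal. The 3 IκBα-deficient animals carried a floxed and a null IκBα allele together with Nestin-Cre (IκBαfl/-;Nestin-Cre), and the 3 littermate controls carried the same alleles without Cre (IκBαfl/-), so every animal had at most 1 working allele and the effect of the deletion cannot be told apart from that of the Cre transgene. Nestin-Cre acts in neural progenitors, whose descendants are neurons, astrocytes and oligodendrocytes. Microglia and endothelial cells come from other lineages. All probe sets whose only gene symbol was 1 of the 9 genes were taken, which gave 24 of 45037 non-control probe sets for 8 of the 9 genes, of 18193 genes with a probe set of their own. H2-T23 had 2 probe sets, both of which also carried another symbol in the annotation, so its expression is not analysed here and it enters only the promoter comparison. All 24 probe sets were tested, with no filter on low values.

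MHC class I molecules display peptides from inside the cell on its surface. The proteasome cuts proteins into peptides, the TAP transporter (Tap1 with Tap2) carries these into the endoplasmic reticulum, and tapasin (Tapbp) bridges TAP to a new heavy chain paired with β2-microglobulin (B2m) until a peptide is bound. Resting brain has little class I protein, interferon induces it in many cell types, and neurons use class I molecules in synapse refinement. IκBα, encoded by Nfkbia, holds NF-κB in the cytoplasm, and class I promoters are known to carry a binding site for NF-κB (enhancer A) beside an interferon response element and an SXY module, through which Nlrc5 acts.

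The promoters of both classical heavy chains and of B2m are shown for these elements, beside that of the nonclassical heavy chain H2-M3. Among the brightest probe sets, groups did not overlap for H2-K1, and overlapped for H2-D1 and B2m as for H2-M3. They also did not overlap for Tapbp, whose window held CCAAT alone. Whether the motifs bear on these values was not tested. Each window runs 5′ to 3′ from 250 bases before to 50 bases after the annotated start, read from RefSeq (GRCm38.p6), and capitals mark matches to 4 motifs searched on both strands: an NF-κB motif (GGG, any 2 bases, TT, any base, CC), the IRF motif AANNGAAA, the CRE-like core TGACG of the X2 box, and CCAAT. No 2 matches overlapped in these windows. H2-K1 lies on the minus strand at chr17:34000284-34000583, H2-D1 on the plus strand at chr17:35262844-35263143, B2m on the plus strand at chr2:122147437-122147736 and H2-M3 on the plus strand at chr17:37269984-37270283.
H2-K1: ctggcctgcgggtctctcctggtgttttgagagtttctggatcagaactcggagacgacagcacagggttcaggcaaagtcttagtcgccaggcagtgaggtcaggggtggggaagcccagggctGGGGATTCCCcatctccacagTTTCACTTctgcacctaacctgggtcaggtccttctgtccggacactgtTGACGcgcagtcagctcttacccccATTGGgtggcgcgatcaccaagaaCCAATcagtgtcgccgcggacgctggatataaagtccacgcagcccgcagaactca
H2-D1: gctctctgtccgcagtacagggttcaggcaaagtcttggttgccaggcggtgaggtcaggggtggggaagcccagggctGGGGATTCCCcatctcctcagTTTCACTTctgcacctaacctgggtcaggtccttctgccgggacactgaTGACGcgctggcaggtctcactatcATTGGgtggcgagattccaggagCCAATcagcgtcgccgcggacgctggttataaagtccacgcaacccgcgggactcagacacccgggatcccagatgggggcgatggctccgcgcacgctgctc
B2m: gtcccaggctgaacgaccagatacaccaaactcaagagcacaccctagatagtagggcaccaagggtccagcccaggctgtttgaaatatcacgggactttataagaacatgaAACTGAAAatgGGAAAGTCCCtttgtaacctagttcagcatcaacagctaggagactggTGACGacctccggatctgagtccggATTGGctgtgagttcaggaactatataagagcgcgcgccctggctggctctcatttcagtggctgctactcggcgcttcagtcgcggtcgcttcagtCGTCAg
H2-M3: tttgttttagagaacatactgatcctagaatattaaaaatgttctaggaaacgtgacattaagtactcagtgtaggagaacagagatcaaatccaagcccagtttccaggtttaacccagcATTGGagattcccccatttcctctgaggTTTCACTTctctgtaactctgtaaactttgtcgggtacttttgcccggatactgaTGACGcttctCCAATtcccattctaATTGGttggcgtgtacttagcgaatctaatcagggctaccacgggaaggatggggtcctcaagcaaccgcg

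H2-K1, H2-D1 and B2m held all 4 motifs, which 0.0983% of 32544 promoter windows of the same length did. In H2-K1 and H2-D1 the NF-κB match began 21 bases before the IRF match, the IRF match 49 bases before the CRE-like match, and that match 25 bases before the nearest CCAAT on the other strand. The windows of these 2 genes were identical at 87.7% of 253 aligned bases. In B2m the NF-κB and IRF matches lay on the opposite strands, and in reverse order. H2-M3 had the IRF, CRE-like and CCAAT matches without the NF-κB letters. Over the 7 members with a window in the table, the NF-κB motif was found in 3 (4.78% of all windows), the IRF motif in 5 (23.9%), the CRE-like core in 5 (20.9%) and CCAAT in 7 (37.4%). Tap2 and Nlrc5 had no window in the table. Tap1 shared 275 of its 300 bases with the window of Psmb9, an immunoproteasome subunit transcribed the other way from a start 226 bases away. A match to these letters is a description and not evidence of binding.

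**Figure D1:**
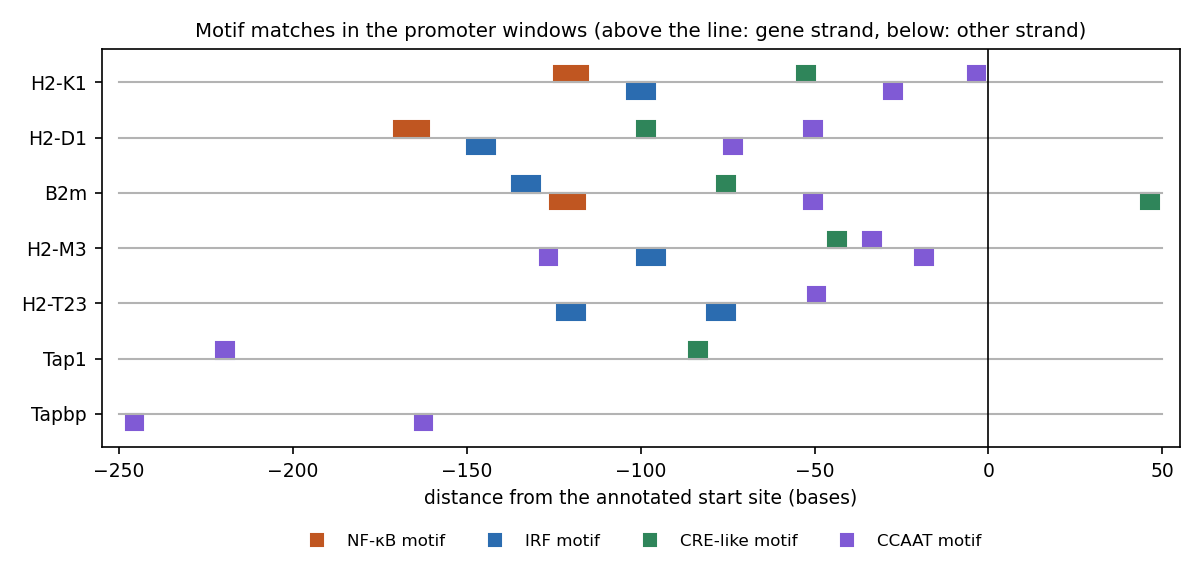
Motif matches in the promoter windows of 7 class I genes, plotted as distance in bases from the annotated start site, with matches on the gene's strand above each line and on the other strand below. H2-K1 and H2-D1 show the same order and spacing, and 3 of the 7 genes hold the NF-κB motif.

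The values are log2 values made with RMA, a summary over the short probes of each probe set, so levels can be compared between arrays and not between genes. Nfkbia, the deleted gene, was lower on all 3 deficient arrays than on all 3 controls in its 4 brightest probe sets, with a mean of 8.77 ± 0.05 against 6.99 ± 0.11 (SD, n = 3) for 1438157_s_at, 3.42-fold lower. Of its 5 probe sets 3 passed, with an adjusted p of 0.00183 for 1438157_s_at (limma, Benjamini-Hochberg over all 45037 probe sets). These 3 were the only probe sets that passed over the whole array, 0.00666%. Of the hippocampal neuron markers measured, 11 of 11 had a mean above that of the median probe set. IκBα-deficient array 2 stood apart on the RNA quality controls. Its gap between 3′ and 5′ probe sets of Gapdh and actin was 2.02 on the log2 scale, beside 0.56 to 0.73 on the other 5 arrays. Where it moves the brightest probe set of a class I member by over 1.5 times, the value is also given without it. Other pathway genes and markers are given over all arrays only, so how far they depend on it was not tested.

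Across the 24 class I probe sets, 19 were higher in IκBα-deficient hippocampus and 5 lower, with a median difference of 0.14 on the log2 scale, beside -0.0005 over all probe sets. By the brightest probe set of each gene all 8 genes were higher, by 0.09 to 0.35, with a median of 0.22 beside 0.006 over 18193 genes. None of the 24 passed an adjusted p of 0.05 (limma, Benjamini-Hochberg), and the lowest adjusted p was 0.9999. At an unadjusted p under 0.05 from limma, 3 were higher, where 2.15% of all probe sets were, and 0 lower, where 1.19% were. The 3 were a pair of H2-K1 probe sets and 1 of H2-D1. In 5 of the 24 every deficient array was above every control, as in 4.76% of all probe sets, and in 0 was every one below, as in 3.68%. The 5 were 2 of H2-K1, 2 of H2-D1 and 1 of Tapbp, and probe sets of the same gene are not independent readings. By the brightest probe set of each gene, 2 of 8 genes were wholly above, beside 5.94% of all genes. Leaving out IκBα-deficient array 2 turned the count of 3 into 6 (1.89% of all probe sets) and the count of 5 into 10 (8.29% of all probe sets). The count of 3 was 1 on leaving out control array 2 (1.82% of all probe sets), and likewise 1 for control array 3 (1.52% of all probe sets). With 3 arrays against 3 an exact permutation test cannot go below p = 0.1. In tissue RNA, fewer cells of a type and less RNA per cell cannot be told apart.

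Brighter and dimmer probe sets are given apart. All 10 with a mean above 7 were higher, with a median of 0.20, and 3 of them had deficient arrays wholly above controls, beside 5.94% of all probe sets of that brightness. Of the 12 below the median probe set (a mean of 6.10 over the arrays) 8 were higher and 4 lower, with a median of 0.09.

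**Figure D2:**
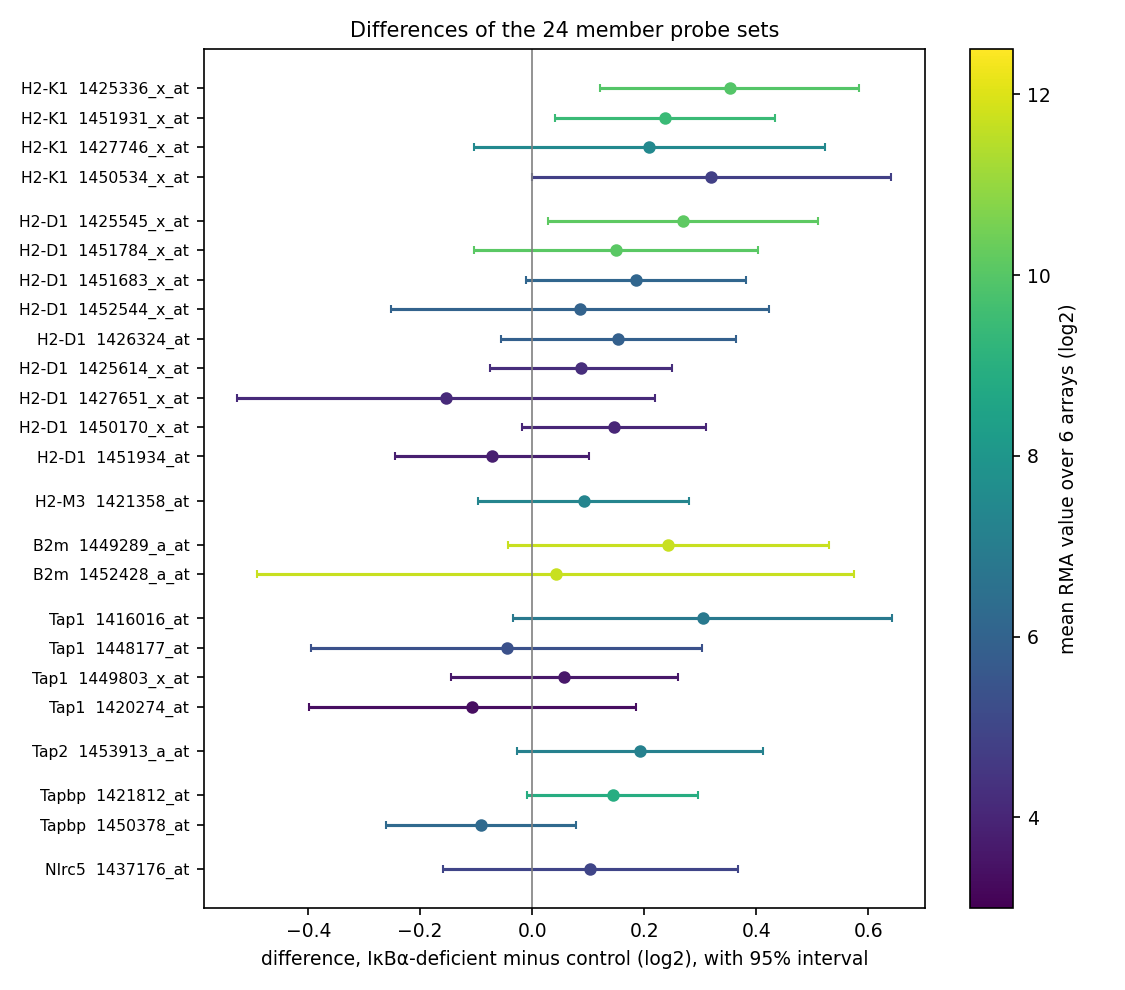
Difference between IκBα-deficient and control arrays (log2, x axis) for each of the 24 probe sets, with the 95% interval of the limma fit and the mean level over 6 arrays as colour. All 10 probe sets with a mean above 7 lie right of 0, and the 5 on the left are dim or of middle level.

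H2-K1, a classical heavy chain that presents peptides to CD8 T cells, had the largest difference among the genes. Its brightest probe set, 1425336_x_at, stood at 9.85, 9.81 and 9.66 on control arrays 1 to 3 and at 10.11, 9.99 and 10.29 on IκBα-deficient arrays 1 to 3. Every deficient array was above every control, and IκBα-deficient array 3 was the highest. The control mean was 9.77 ± 0.10 and the deficient mean 10.13 ± 0.15 (SD, n = 3), a difference of 0.35 ± 0.10 (SE) or 1.28-fold, with an interval of 0.12 to 0.58. The unadjusted p from limma was 0.00818 and the adjusted p 0.9999. A second probe set, 1451931_x_at, was at 9.40, 9.31 and 9.25 in controls and 9.54, 9.46 and 9.68 in deficient animals, again without overlap (difference 0.24, unadjusted p from limma 0.0239, adjusted p 0.9999). The other H2-K1 probe sets overlapped between groups, with differences of 0.21 for 1427746_x_at and 0.32 for the dim 1450534_x_at. Single arrays set the first of these, which was 0.36 with no overlap without IκBα-deficient array 2 (unadjusted p from limma 0.00764, adjusted p 0.99999) and 0.09 without IκBα-deficient array 3. All 4 carry the suffix _x_at, which Affymetrix gives to probe sets that share probe sequence with other transcripts, so signal from other class I heavy chains cannot be told apart from that of H2-K1. The difference of the brightest probe set was 0.27 to 0.42 with any 1 array left out.

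H2-D1, the second classical heavy chain measured, had 9 probe sets, 7 of them higher and 2 lower. The brightest, 1425545_x_at, was at 10.13, 9.98 and 9.94 in controls and at 10.30, 10.11 and 10.45 in deficient animals. IκBα-deficient array 2 lay just under control array 1, and the other deficient arrays were above all controls. The difference was 0.27 ± 0.10 (SE), 1.21-fold, with an interval of 0.03 to 0.51 (unadjusted p from limma 0.0330, adjusted p 0.9999), and it was 0.36 without IκBα-deficient array 2. The similarly bright 1451784_x_at differed by 0.15, at 10.14, 9.93 and 9.88 in controls and 10.13, 9.97 and 10.30 in deficient animals. Leaving out control array 1 or IκBα-deficient array 2 gave 0.23, and leaving out IκBα-deficient array 3 gave 0.07. Deficient arrays lay wholly above controls in 1451683_x_at (difference 0.19) and in the dim 1450170_x_at (difference 0.15). The lower ones were the dim 1427651_x_at (-0.15) and 1451934_at (-0.07). Of the 9, 7 had the suffix _x_at, among them the brightest and those without overlap between groups. Of the other pair, 1426324_at differed by 0.15 with overlap (unadjusted p from limma 0.129, adjusted p 0.9999), and 1451934_at was lower.

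H2-M3, a nonclassical heavy chain that binds N-formylated peptides, overlapped between groups. Its 1 probe set was at 7.31, 7.27 and 7.21 in controls and at 7.35, 7.25 and 7.47 in deficient animals. The difference was 0.09 ± 0.08 (SE), with an interval of -0.10 to 0.28, and it ranged from 0.04 without IκBα-deficient array 3 to 0.15 without IκBα-deficient array 2. Although it was small, the order of the arrays resembled that of the classical chains, with a correlation over 6 arrays of 0.89 with H2-K1 and 0.94 with H2-D1, beside 0.97 between H2-K1 and H2-D1. These are descriptions over 6 arrays that share the group difference. With group means removed they were 0.98, 0.97 and 0.94. The H2-K1 and H2-D1 values come from _x_at probe sets, which may share probe sequence. With group means removed, H2-M3 had 0.74 with B2m, but -0.61 with Tap1, -0.02 with Tap2, -0.76 with Tapbp and -0.33 with Nlrc5.

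B2m, the light chain that every class I heavy chain here needs to reach the cell surface, split the deficient arrays. Probe set 1449289_a_at was at 11.59, 11.63 and 11.57 in controls and at 12.003, 11.55 and 11.96 in deficient animals. Controls lay close together, IκBα-deficient arrays 1 and 3 were above them all, and IκBα-deficient array 2 was below them all. The second probe set, 1452428_a_at, gave the same split more widely, with 11.65, 11.68 and 11.67 in controls and 11.97, 11.10 and 12.04 in deficient animals. Over all arrays the differences were 0.24 ± 0.12 (SE) and 0.04 ± 0.23 (SE), with unadjusted p from limma of 0.0861 and 0.859. Without IκBα-deficient array 2, the array with the wide 3′ to 5′ gap, they were 0.39 ± 0.07 and 0.34 ± 0.07 (SE), or unadjusted p from limma of 0.00101 and 0.00189 with an adjusted p of 0.99999 for both. Without IκBα-deficient array 1 the first was 0.16 and the second -0.09, and without IκBα-deficient array 3 the second was -0.13. With the gap as a covariate in the fit of all 6 arrays, the first probe set differed by 0.38. The gap stands apart on IκBα-deficient array 2 alone, so this fit comes close to leaving that array out. It is not a separate check.

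**Figure D3:**
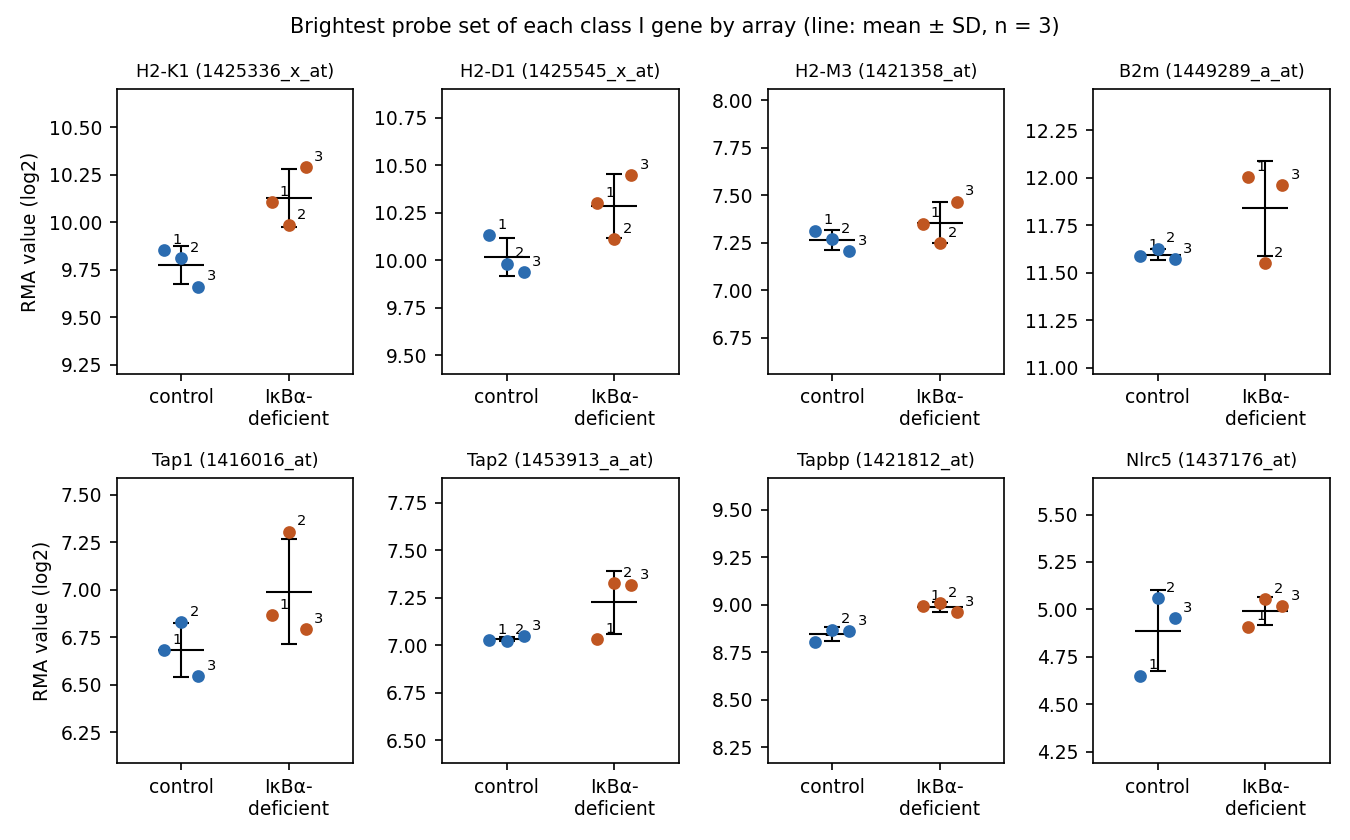
RMA values (log2) of the brightest probe set of each of the 8 measured class I genes, by group, with 1 point per array labelled by its repeat number and a line for the mean ± SD (n = 3). Each panel spans the same range. H2-K1 and Tapbp show groups without overlap, and B2m and Tap1 show IκBα-deficient array 2 apart from the other deficient arrays, in opposite directions.

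Tap1, a subunit of the TAP transporter, was highest on the array where B2m was lowest. Its brightest probe set, 1416016_at, was at 6.68, 6.83 and 6.54 in controls and at 6.87, 7.31 and 6.79 in deficient animals. IκBα-deficient array 2 was far above the rest, and the other deficient arrays lay near control array 2. The difference was 0.30 ± 0.15 (SE), 1.23-fold, with an interval of -0.03 to 0.64 (unadjusted p from limma 0.0713, adjusted p 0.9999), and it was 0.15 without IκBα-deficient array 2. Without IκBα-deficient array 3 it was 0.40 (unadjusted p from limma 0.0344, adjusted p 0.837). The other probe sets of Tap1 had means below the median probe set and differed by -0.05, 0.06 and -0.11, and both of the negative values turned positive on leaving out control array 3 (0.09 and 0.03). Tap2, its partner subunit, was at 7.03, 7.02 and 7.05 in controls and at 7.03, 7.33 and 7.32 in deficient animals (1453913_a_at). Controls lay close together, IκBα-deficient arrays 2 and 3 were above them, and IκBα-deficient array 1 lay among them. Its difference was 0.19 ± 0.09 (SE), with an interval of -0.03 to 0.41 and an unadjusted p from limma of 0.0782 (adjusted p 0.9999). Without IκBα-deficient array 1 it was 0.29 with no overlap (unadjusted p from limma 0.00766, adjusted p 0.962), and it was 0.14 to 0.29 with any 1 array left out.

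Tapbp, the tapasin gene, showed a small difference without overlap. Its brighter probe set, 1421812_at, was at 8.80, 8.87 and 8.86 in controls and at 8.99, 9.01 and 8.96 in deficient animals. The SDs were 0.04 and 0.02 and the difference was 0.14 ± 0.07 (SE), 1.10-fold (unadjusted p from limma 0.0608, adjusted p 0.9999). It was 0.12 to 0.16 with any 1 array left out. The second probe set, 1450378_at, went the other way, from 6.27, 6.31 and 6.31 in controls to 6.22, 6.11 and 6.28 in deficient animals (difference -0.09). Nlrc5, the activator that acts on class I promoters, was dim, at 4.65, 5.06 and 4.95 in controls and 4.91, 5.05 and 5.02 in deficient animals. Its groups overlapped, its difference of 0.10 had an interval of -0.16 to 0.37, and without control array 1 the difference was -0.014 and without control array 2 it was 0.19.

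**Figure D4:**
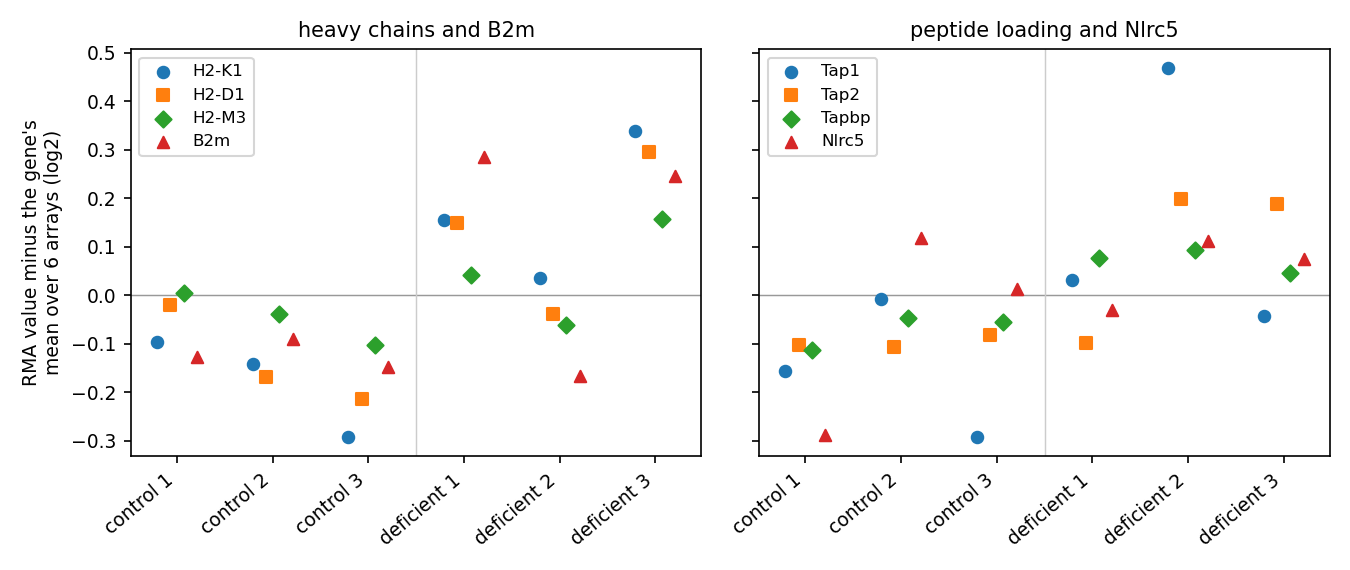
RMA value of each gene's brightest probe set minus that gene's mean over the 6 arrays (log2, y axis), by array, with heavy chains and B2m on the left and the peptide-loading genes and Nlrc5 on the right. On the left the highest values of H2-K1, H2-D1 and H2-M3 are on IκBα-deficient array 3, and on the right Tap1, Tap2 and Tapbp are highest on IκBα-deficient array 2.

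The other genes of the pathway were read by the brightest probe set of each, and 0 of them passed over all probe sets (limma adjusted p). Read the same way, an unadjusted p under 0.05 from limma was reached by 2.61% of the 18193 genes upward and 1.06% downward, and groups lay wholly apart in 5.94% upward and 3.82% downward. Of 12 measured other class I heavy chains, 8 were higher and 4 lower, with a median of 0.03, and 3 had groups without overlap. Hfe, the class I-like regulator of iron uptake, was at 7.12, 7.10 and 7.05 in controls and 7.49, 7.57 and 7.36 in deficient animals, a difference of 0.39 ± 0.08 (SE). Fcgrt, the heavy chain of the neonatal Fc receptor, differed by 0.19, and both proteins pair with B2m. Mr1, which presents microbial metabolites, differed by -0.23, and its second probe set had the opposite sign. A further 12 of the 24 heavy chains listed had no probe set of their own. Most of the measured H2 genes of this list were dim, below the median probe set. Probe sets that carry several symbols, a class I heavy chain among them, are outside the list and had a median difference of 0.17.

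Before loading, peptides are made by the proteasome and trimmed. Of 12 measured proteasome and peptidase genes 4 were higher and 8 lower, with a median of -0.01. The interferon-inducible subunits Psmb9 and Psmb8, which flank Tap1 in the genome, differed by 0.24 and 0.18. Psmb9 was at 6.46, 6.57 and 6.34 in controls and 6.52, 6.71 and 6.85 in deficient animals, with IκBα-deficient array 1 inside the control range. The second probe set of Psmb8 had the opposite sign. Other interferon-inducible proteasome genes overlapped between groups, with differences of 0.02 for the catalytic subunit Psmb10 and -0.11 for the activator subunit Psme1. Psme1 was at 10.22, 10.15 and 10.24 in controls and 10.20, 9.84 and 10.25 in deficient animals. Only IκBα-deficient array 2, with the wide 3′ to 5′ gap, lay below the control range. The constitutive subunit Psmb5, which Psmb8 replaces in immunoproteasomes, differed by -0.08 with deficient arrays wholly below controls. Chaperones of the endoplasmic reticulum and trimming enzymes were split, with 4 of 9 higher, 5 lower, a median of -0.05 and 0 without overlap. The smallest p values among them belonged to the glucosidase subunit Ganab (-0.10), the chaperone Hspa5 (-0.09) and the sorting protein Bcap31 (0.09), and each had another probe set of opposite sign.

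Regulators of class I transcription held 4 of 24 genes with deficient arrays wholly above controls. Relb, an NF-κB subunit, was at 7.15, 7.08 and 7.11 in controls and 7.38, 7.55 and 7.58 in deficient animals, a difference of 0.39 ± 0.08 (SE). Ifngr1, the ligand-binding chain of the interferon-γ receptor, was at 8.07, 7.99 and 7.91 against 8.25, 8.31 and 8.36, a difference of 0.31 ± 0.08 (SE). The NF-κB subunit Rela differed by 0.21 and the interferon-induced factor Irf1 by 0.20. In all, 15 of the 24 were higher and 9 lower, with a median of 0.04, and Nfya (-0.18) and Nfyc (-0.08), subunits of the CCAAT-binding factor, had deficient arrays wholly below controls, with 1 of 3 probe sets of Nfya going the opposite way. The interferon-γ gene Ifng was at 3.42 in controls and 3.40 in deficient animals, among the dimmest probe sets. Receptors that bind class I were dim or overlapping, with 3 of 7 higher and 4 lower. Pirb, a class I receptor on neurons and myeloid cells, differed by 0.18 with overlap, the CD8 chain Cd8b1 by 0.09 and Klrk1 by -0.04.

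**Figure D5:**
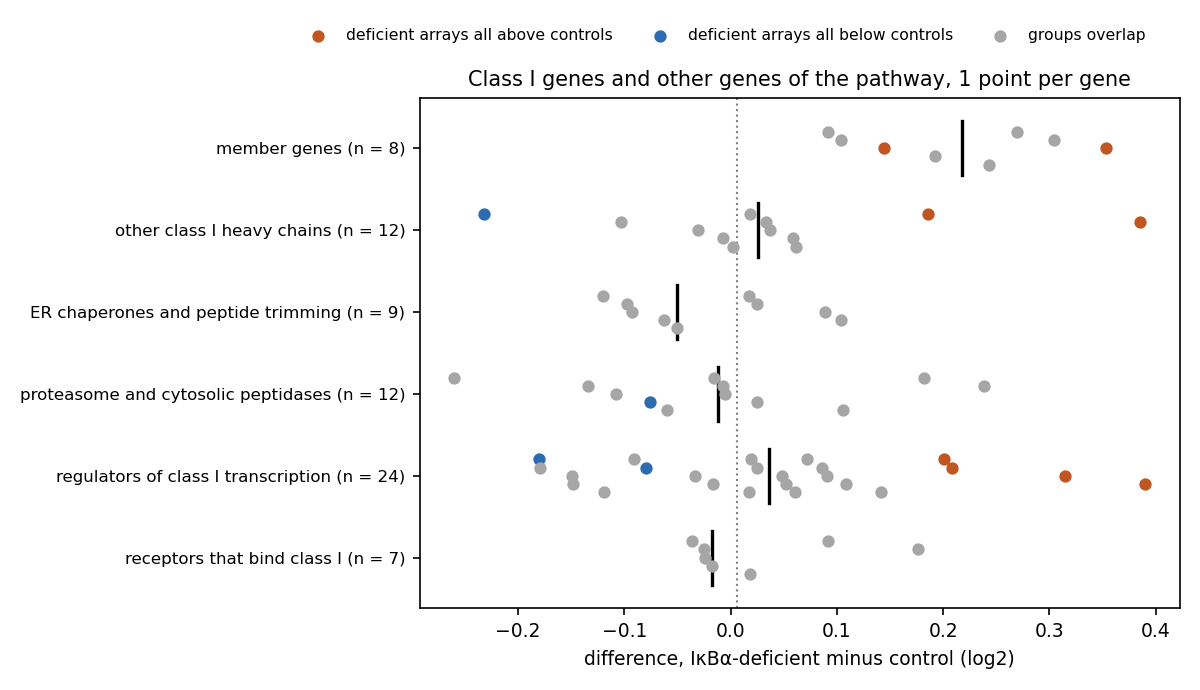
Difference between IκBα-deficient and control arrays (log2, x axis) for the 8 measured class I genes and 5 lists of other pathway genes, with 1 point per gene by its brightest probe set, a bar for the list median and a dotted line for the median of all genes. The class I genes have a median of 0.22 and the medians of the other lists lie between -0.05 and 0.04. Most H2 genes among the other heavy chains are dim. Coloured points mark genes whose groups do not overlap.

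The genes whose values over the 6 arrays most resembled the mean of the 8 class I genes were found among 10387 genes with a mean above 7. Usp32, C330018D20Rik, Pmm2, Fam184a, Aph1a, Mthfsd, Ifngr1 and Lrp4 had correlations of 0.98 to 0.95 with it (n = 6 arrays, which share the group difference), and 37 genes were above 0.9. With group means removed, the values were 0.86 for Usp32, 0.92 for Pmm2, 0.59 for Ifngr1 and 0.45 for Lrp4. A correlation does not read size, and Usp32 differed by 0.02 while Lrp4 differed by 0.35.

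Cell types with class I expression of their own, and tissue next to the hippocampus, were measured through marker lists, of which 0 genes passed over all probe sets. Endothelial markers were higher in 7 of 11, with a mean level of 7.79 to 7.93 in controls and 7.90 to 7.997 in deficient animals. Microglial markers were higher in 5 of 10, at 8.89 to 9.03 and 8.70 to 9.10, and lymphocyte and NK cell markers in 3 of 8, at 5.58 to 5.68 and 5.55 to 5.78. Antigen-presenting cell markers were higher in 7 of 8, at 5.95 to 6.11 against 6.20 to 6.47. The largest differences were in genes of class II presentation: H2-Aa 0.59, Cd74 0.47, H2-Ab1 0.41 and H2-Eb1 0.26. The rest were Itgax 0.20, Ciita 0.07, Ccr2 0.004 and Flt3 -0.11, all with overlap between groups. Meningeal markers were higher in 12 of 12, at 7.42 to 7.94 against 7.97 to 8.77, and choroid plexus markers in 10 of 10, at 5.81 to 8.13 against 8.01 to 8.96. Control array 1, at 8.13, stood apart from the other controls at 5.88 and 5.81 and lay within the range of the deficient arrays. Markers of pericytes and smooth muscle were higher in 7 of 8, of astrocytes in 4 of 7, of oligodendrocytes in 4 of 5 and of hippocampal neurons in 3 of 11. RMA gives no value of 0, so no marker could be read as absent. IκBα-deficient array 2 had the highest meningeal, antigen-presenting, lymphocyte, endothelial and pericyte means. It also had the lowest microglial and neuronal means, the wide 3′ to 5′ gap and the highest Tap1. On a single array these cannot be told apart.

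The fits were repeated with 4 of the 10 marker means as a covariate, 1 at a time: those of choroid plexus, meninges, endothelium and microglia. H2-K1 differed by 0.30 with the choroid plexus mean, 0.41 with the meningeal mean, 0.34 with the endothelial mean and 0.36 with the microglial mean. B2m differed by 0.22, 0.44, 0.37 and 0.25 in the same order. Tap1 differed by 0.31 with the choroid plexus mean and 0.29 with the microglial mean, but by 0.003 with the meningeal mean and 0.11 with the endothelial mean. H2-D1 differed by 0.17 with the choroid plexus mean and Nlrc5 by 0.38. None passed (limma adjusted p of 0.786 or above), and a fit of 6 arrays with a covariate leaves 3 residual degrees of freedom before moderation. The meningeal mean was higher on every deficient array (7.97 to 8.77) than on every control (7.42 to 7.94). A fit with it therefore cannot separate meningeal content from genotype. With so few arrays, the fits with the other means only describe how the differences move. The part of the cell types was thus not tested by these fits, and the other 6 lists, antigen-presenting cells among them, were not fitted.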

How the data were processed

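Hippocampal RNA of 3 IκBα-deficient and 3 control mice had been hybridised to 6 arrays, which the labels call biological repeats. The deposited values are on the log2 scale and were made by the authors with RMA, per the submitters' processing notes, with no version given here. As a method, RMA corrects background, normalizes by quantiles and summarises probes, which compresses differences between low values and can hide a change shared by most genes. Arrays have no read depth, and their number limits precision.

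Of 45101 probe sets, 64 controls were left out. Gene names follow the GEO platform table and may be dated, and all 24 member probe sets matched RefSeq by Entrez identifier. Genotype was fitted over all 45037 probe sets with limma 3.58.1 in R 4.3.3 (lmFit, eBayes, two-sided, threshold 0.05 after Benjamini-Hochberg adjustment). Pathway and marker genes were read by their brightest probe set. The scripts were tested on simulated data. Promoter windows were aligned with Biopython 1.88, and figures drawn with matplotlib 3.10.9.

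The members, lists and tests were chosen with earlier results of these data known. Named were all members, Nfkbia, up to 4 genes per list without overlap between groups (filled to 3 by the smallest p), and the 8 genes most like the members' mean. Nfya, Nfyc, Ifng, Psmb10, Psme1 and the markers of antigen-presenting cells were named outside this rule, after their values were seen. As alternatives, arrays were left out in turn, repeat numbers were blocked, and the fit was run with other normalizations, probe set choices and moderation, without dim probe sets, and with covariates for cell type markers and the 3′ to 5′ gap.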

Additional observations from a re-analysis of the deposited data

How the results depend on the processing

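Over 21 alternatives, 165 of 166 differences of single genes kept their direction, and 0 member probe sets passed an adjusted p of 0.05 (limma) in any. The exception was Nlrc5, at -0.014 without control array 1. Sizes moved more. The lowest over the alternatives was 0.27 for H2-K1, 0.14 for B2m, 0.13 for Tap2 and 0.09 for H2-D1. It was 0.04 for H2-M3, 0.03 for Tapbp and 0.003 for Tap1. Part of the 166 was fixed in advance. Changing the moderation, taking the brightest probe set per gene, leaving out dim probe sets or blocking by repeat number leaves these differences unchanged. Leaving out _s_at and _x_at probe sets does so for all members but H2-K1 and H2-D1. The count of 3 member probe sets higher at an unadjusted p under 0.05 was 1 to 6 with an array left out, beside 1.52% to 3.37% of all probe sets. It was 5 with quantile normalization again or with trend and robust settings, and 6 with array weights or with the meningeal, microglial or 3′ to 5′ covariate. It was 0 without probe sets coded _s_at or _x_at, which leaves H2-K1 with no value, and 1 with the mean of all probe sets of a gene. The count of 5 wholly above controls was 6 to 10 with an array left out, where fewer arrays make separation easier. It was 1 without _s_at and _x_at probe sets, 2 with the brightest probe set per gene and 2 with gene means, where fewer features are counted. The median of 0.14 was 0.11 to 0.16 with an array left out, 0.19 without the lowest 40% of probe sets, 0.22 with the brightest probe set per gene, 0.098 without _s_at and _x_at probe sets and 0.099 with gene means. With the repeat number as a block the count at an unadjusted p under 0.05 was 5. For most settings that kept all arrays the share over all probe sets was not computed. Those counts therefore have no background beside them, and a higher one is not a stronger class I result. Same-numbered arrays deviated together with correlations of -0.004, 0.27 and 0.03, and control array 3 correlated best with IκBα-deficient array 1. The study describes 3 pairs of littermates without tying the repeat numbers to them, so the numbers were not taken to pair the animals. Apart from what the construction of an alternative shows, the cause was not tested.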

Other observations

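A further 12 probe sets carried several symbols with a class I heavy chain among them, and are therefore not named to a gene. Of these, 9 were higher in IκBα-deficient animals and 3 lower, with a median difference of 0.17 on the log2 scale, and 0 passed an adjusted p of 0.05 (limma). Probe set 1418536_at, singled out after its values were seen, was at 5.75, 5.78 and 5.66 in controls and at 6.31, 6.57 and 6.80 in deficient animals. Its difference of 0.83 was larger than that of any of the 24 class I probe sets with 1 symbol, and it ranked 8 of 45037 by p (adjusted p 0.914 from limma). Probe set 1431008_at, also chosen after its values were seen, was at 6.54, 6.49 and 6.14 in controls and at 6.62, 7.01 and 7.33 in deficient animals, a difference of 0.60.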
